A study of Mus musculus with 2 samples.

Results

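The simple epithelial keratins and the E-cadherin complex were examined as 10 genes of colon epithelium: the keratins Krt7, Krt8, Krt18, Krt19 and Krt20, the cadherins Cdh1 and Cdh17, beta-catenin (Ctnnb1), the adhesion molecule Epcam and the desmosomal cadherin Dsg2. The members were chosen by name, with earlier results of these data known. Their probes were found through the RefSeq transcript that each gene probe of the array carries. All 10 genes were found, with 12 probes, among 14679 genes that gave a value. Each of the 12 probes is 1 spot, and each was well above background on both arrays by the scanner software's own flag.

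Expression was measured in total RNA of colon from C57BL/6 mice on 2 Agilent 1-colour arrays, 1 for each genotype. The control, Villin-Cre, carries Cre recombinase under the villin promoter, which is active in intestinal epithelium. EP4 cKO, labelled Villin-Cre; EP4flox/flox, carries the same transgene and floxed alleles of Ptger4, the gene of the prostaglandin E2 receptor EP4, so that both genotypes share Villin-Cre. The mice were eight-week-old by the methods, and each array received RNA mixed from 3 colon pools, prepared by the methods from whole tissue with no stated step that separated the epithelium. With 1 array per genotype no test was possible, and the values below describe these 2 pooled samples without any measure of the spread between animals. In tissue of this kind, fewer cells of a type and less RNA per cell cannot be told apart.

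Keratins form the intermediate filaments of epithelial cells, each filament pairing a type I with a type II keratin. In the single-layered epithelium of the gut, Krt8 is the type II partner of the type I keratins Krt18, Krt19 and Krt20. Krt8, Krt18 and Krt19 are made through much of the crypt, whereas Krt20 is made mainly in differentiated cells near the luminal surface. E-cadherin joins neighbouring cells at the adherens junction, where beta-catenin binds its tail, and desmosomes join the keratin filaments of one cell to those of the next.

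The keratin promoters are shown because Krt20 stood apart from the other member keratins in the values that follow. RefSeq's table of promoters, build GRCm38.p6, held 6 of the 10 members. The 4 keratin windows below run from 250 bases before the annotated start of transcription to 30 bases after it, 5′ to 3′ on the strand of the gene, and capitals mark TATAAA (the TATA box) and GGAATG (the core bound by TEAD factors) on either strand.
Krt20 (chr11:99438124-99438403, minus strand): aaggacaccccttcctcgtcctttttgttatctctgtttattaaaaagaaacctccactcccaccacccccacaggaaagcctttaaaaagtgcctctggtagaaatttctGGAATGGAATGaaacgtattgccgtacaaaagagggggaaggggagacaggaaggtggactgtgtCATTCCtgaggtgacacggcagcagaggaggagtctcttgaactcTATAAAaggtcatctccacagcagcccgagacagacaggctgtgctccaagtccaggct
Krt8 (chr15:102004313-102004592, minus strand): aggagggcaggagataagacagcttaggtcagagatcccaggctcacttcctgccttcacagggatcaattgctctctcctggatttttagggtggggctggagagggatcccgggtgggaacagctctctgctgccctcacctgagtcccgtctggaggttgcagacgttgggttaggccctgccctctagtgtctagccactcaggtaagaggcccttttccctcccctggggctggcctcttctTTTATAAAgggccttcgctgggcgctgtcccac
Krt18 (chr15:102027966-102028245, plus strand): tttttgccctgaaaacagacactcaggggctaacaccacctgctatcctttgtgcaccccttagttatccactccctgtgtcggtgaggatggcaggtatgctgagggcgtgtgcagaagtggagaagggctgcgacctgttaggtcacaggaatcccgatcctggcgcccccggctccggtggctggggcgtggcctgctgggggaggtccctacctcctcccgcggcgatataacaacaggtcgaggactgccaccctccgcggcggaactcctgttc
Krt7 (chr15:101412153-101412432, plus strand): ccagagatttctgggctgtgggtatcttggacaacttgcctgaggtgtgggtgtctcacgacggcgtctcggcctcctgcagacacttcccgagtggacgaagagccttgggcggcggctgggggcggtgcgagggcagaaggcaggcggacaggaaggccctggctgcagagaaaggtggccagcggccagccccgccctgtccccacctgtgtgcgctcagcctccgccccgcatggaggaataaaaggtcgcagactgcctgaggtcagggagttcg

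The Krt20 window held TATAAA beginning 29 bases before the start and GGAATG 3 times, beginning 139, 134 and 74 bases before it, the last on the opposite strand. In the Krt8 window TATAAA began 1 base before the annotated start and overlapped its own reverse match, and the Krt18 and Krt7 windows held neither motif. One of the pair of Ctnnb1 start sites held TATAAA, 120 bases before the start, and the Epcam window held neither. Among 32851 mouse promoters of the same length, 13.1% held TATAAA and 13.9% held GGAATG on either strand. TTCNNNGAA, the site of STAT factors, was in 7.83% of those promoters, TGACGTCA, the cyclic AMP response element, was in 1.74%, both strands searched, and neither was in any of the member windows. The motifs were chosen after the sequences had been seen, and a match is only a description of the letters.

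The signals of each array were scaled to a trimmed mean of 2500, and log2 ratios are EP4 cKO over Villin-Cre. Ptger4, the targeted gene, gave 6227 under the Villin-Cre label and 5661 under the EP4 cKO label with its brighter probe, a log2 ratio of -0.14, and 393 and 592 with its dimmer probe, a log2 ratio of 0.59. The brighter value moved to 0.02 and 0.05 when the arrays were scaled to the 75th percentile or to a median ratio of 0, so that the targeted gene did not identify the deleted sample. Where these probes lie relative to the floxed part of the gene was not determined here, and a probe outside it would check nothing. Genotypes are therefore given as the arrays were labelled. No spot was saturated, and 45.4% and 51.6% of the probes were well above background on the arrays labelled Villin-Cre and EP4 cKO. Where a gene had several probes, the brightest stood for it. The error given with a member's log2 ratio is the scanner software's own estimate, which was 0.20 for each of the 10 brightest probes and does not cover animals, pools or hybridisations. Spots printed in replicate within each array gave ratios with a typical SD of 0.035 (n = 289 probes), and noisier probes are not described by it.

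Krt20 was the member that differed most between the arrays. Its normalized signal was 146575 under the Villin-Cre label and 510711 under the EP4 cKO label, a log2 ratio of 1.80 ± 0.20 (software error), which is 3.48-fold. Of the 10 members, 1 (Krt20) passed 2-fold upward under the EP4 cKO label and 0 passed it downward. Among all 14679 genes, 4.88% passed 2-fold in the higher direction and 7.98% in the lower. Among the 3303 genes at least as bright as the dimmest member, the shares were 5.18% higher and 1.63% lower. The count of 1 in 10 is thus a statement about Krt20 and not about the list. A higher ratio than that of Krt20 was found in 254 genes, or 1.73% of all, and in 65, or 1.97%, of the brighter genes. Under each of the 9 other ways of processing, its log2 ratio lay between 1.80 and 1.99.

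**Figure D1:**
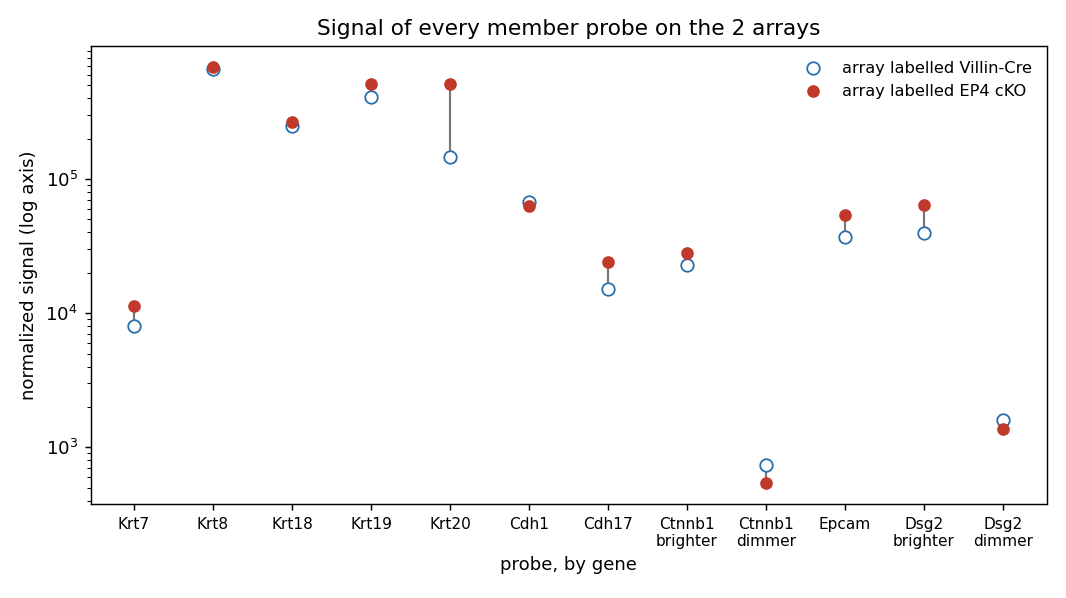
Normalized signal (log axis) of each of the 12 member probes on the array labelled Villin-Cre (open circles) and the array labelled EP4 cKO (filled circles), 1 spot per probe and array. The Krt20 probe shows the widest separation, from 146575 to 510711, whereas the Krt8, Krt18 and Cdh1 circles nearly coincide.

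Krt8 and Krt18, which assemble with each other into the basic filament of simple epithelia, gave nearly equal signals on the 2 arrays. The Krt8 signal was 663603 under the Villin-Cre label and 686670 under the EP4 cKO label, a log2 ratio of 0.05. The Krt18 signal was 246699 and 264844, a log2 ratio of 0.10. Both lay within the software error of 0, and the ratios of the partners differed by 0.05, against an error of 0.29 for such a difference. Each was above 0 under all 10 settings, the highest value being 0.23 for Krt8 and 0.29 for Krt18. This cannot decide the sign, because the filters and probe rules left these single probes unchanged. The other scalings raised the median ratio of the whole array by 0.13 to 0.19.

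Krt19, the smallest type I keratin, which lacks most of the tail domain, gave 409329 under the Villin-Cre label and 511892 under the EP4 cKO label. The log2 ratio was 0.32 (1.25-fold). Krt7, a type II keratin known mainly from ductal and glandular epithelia, gave 8039 and 11295, a log2 ratio of 0.49 (1.40-fold). Both keratins were higher on the array labelled EP4 cKO by more than the software error and by less than 2-fold, with ranges over the settings of 0.32 to 0.51 for Krt19 and 0.48 to 0.68 for Krt7.

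The log2 ratio of Krt20 exceeded that of Krt8, its type II partner, by 1.75. The excess was 1.70 over Krt18, 1.48 over Krt19 and 1.31 over Krt7, each with a software error of 0.29. A difference of log2 ratios does not move with the overall scale of an array, and over the 10 settings these excesses ranged from 1.31 over Krt7 to 1.75 over Krt8. The 7 members made throughout the colon epithelium (Krt8, Krt18, Krt19, Cdh1, Cdh17, Epcam and Dsg2) had log2 ratios from -0.10 to 0.70, with a median of 0.32. Krt20 lay 1.48 above that median, a 2.79-fold excess of the surface keratin over the pan-epithelial level. Against 16 other pan-epithelial genes, whose median was -0.12, the excess was 1.92.

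**Figure D2:**
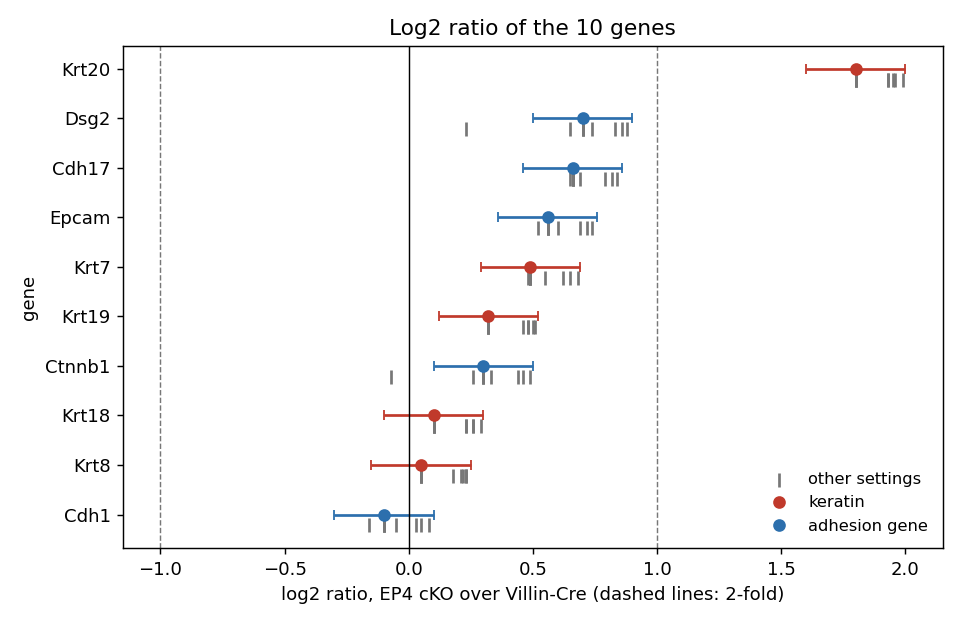
Log2 ratio of EP4 cKO over Villin-Cre for the brightest probe of each of the 10 genes, with bars giving the scanner software's error and grey ticks giving the value under each other way of processing. Krt20 lies at 1.80, and the other 9 genes lie between -0.10 and 0.70, inside the dashed lines that mark 2-fold.

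Cdh1, the gene of E-cadherin, was the only member with a log2 ratio below 0 by its brightest probe. Its signal was 67618 under the Villin-Cre label and 62930 under the EP4 cKO label, a log2 ratio of -0.10, which lay within the software error of 0. The sign depended on the scaling: 3 of the 10 settings put Cdh1 above 0, within a range of -0.16 to 0.08. Cdh17, the liver-intestine cadherin, which has a short tail without a beta-catenin site, gave 15185 and 23978, a log2 ratio of 0.66 (1.58-fold). The ratio of Cdh17 exceeded that of Cdh1 by 0.76, with an error of 0.29 and a range of 0.74 to 0.80 over the settings.

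Ctnnb1 encodes beta-catenin, which both anchors E-cadherin to the actin cytoskeleton through alpha-catenin and carries Wnt signals to the nucleus. Its brighter probe gave 22870 under the Villin-Cre label and 28222 under the EP4 cKO label, a log2 ratio of 0.30 (1.23-fold). Its dimmer probe gave 735 and 540, a log2 ratio of -0.45 with an error of 0.22. The probes of this gene thus pointed in opposite directions and differed by 0.75 (error 0.30), or by 0.55 after a loess fit of the ratio on signal. The mean of the pair was -0.07, so no direction can be given for Ctnnb1.

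Epcam, a homophilic adhesion molecule and surface marker of most simple epithelia, gave 36716 under the Villin-Cre label and 54066 under the EP4 cKO label. The log2 ratio was 0.56 (1.47-fold), with a range of 0.52 to 0.74. Dsg2, the desmoglein of simple epithelia, gave 39483 and 64110 with its brighter probe, a log2 ratio of 0.70 (1.62-fold). Its dimmer probe gave 1611 and 1370, a log2 ratio of -0.23 with an error of 0.21. As with Ctnnb1, the brighter probe of Dsg2 was higher and the dimmer one lower on the array labelled EP4 cKO, with a difference of 0.93 (error 0.29). The mean of the Dsg2 probes was 0.23.

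Ratios also varied with signal over the whole array. When the 24734 probes measured on both arrays were ranked by signal and divided into 10 equal groups, the group medians of the log2 ratio went from -0.50 in the dimmest to -0.04 and -0.09 in the brightest pair. After the loess fit the dimmer member probes stood at -0.22 for Ctnnb1 and -0.07 for Dsg2, and the part of signal in their difference from the brighter probes was not tested further. The brighter probes of both genes remained above 0 after the same fit, at 0.33 and 0.74.

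**Figure D3:**
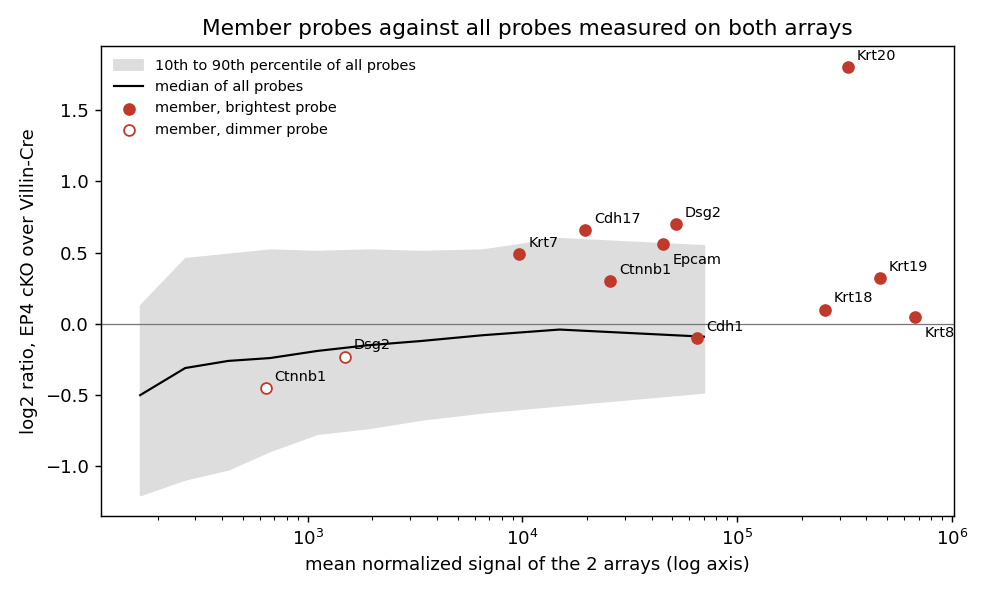
Log2 ratio of EP4 cKO over Villin-Cre against mean normalized signal (log axis) for the 12 member probes, with the median (line) and the 10th to 90th percentiles (grey) of the 24734 probes measured on both arrays, in 10 groups of rising signal. Krt20 at 1.80 lies far above the grey band, and the dimmer Ctnnb1 and Dsg2 probes lie inside it below 0.

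Of the list as a whole, 9 of the 10 members had a log2 ratio above 0 and 1 had a ratio below it by their brightest probes, with a median of 0.41. The 9 include Ctnnb1, whose probes disagreed and whose mean over probes was -0.07. The median of all 14679 genes was -0.10, and that of the 3303 brighter genes was -0.04. Without Krt20 the median of the other 9 was 0.32. Under 5 other scalings the median ratio over the probes measured on both arrays was 0.13 to 0.19 higher, so the members are also given by rank. Of all genes, 8.03% had a higher ratio than Dsg2, 8.59% than Cdh17, 10.4% than Epcam, 17.7% than Krt19 and 18.5% than Ctnnb1, whereas 29.5% exceeded Krt18, 32.9% exceeded Krt8 and 50.3% exceeded Cdh1. Of the 3303 brighter genes, 14.1% had a higher ratio than Krt7.

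The partners of E-cadherin lay on both sides of 0. Of 14 adherens junction partners, 13 had a value, 0 exceeded 2-fold upward and 1 did so downward, with 8 above 0, 5 below and a median of 0.26. Ctnna1 (alpha-catenin), which links the complex to actin, was at 0.60, Jup (plakoglobin), which can replace beta-catenin, at 0.59, and Nectin4 at 0.64. Among those below 0, Afdn (afadin), which links nectins to actin, was at -0.58, Nectin3 at -0.24, Nectin2 at -0.09 and Vezt at -0.07. Nectin2 and Vezt lay within the software error of 0, and their signs depended on the scaling. They were at 0.07 and 0.09 at the 75th percentile and at -0.10 and -0.01 after normexp and quantile normalization. A dimmer Nectin2 probe was at 0.19. The partner past 2-fold was Arvcf, a catenin of the p120 family, whose signal was 521 under the Villin-Cre label and 146 under the EP4 cKO label, a log2 ratio of -1.83 that became -0.82 after normexp correction and quantile normalization. The ratio of Ctnna1 exceeded that of Cdh1 by 0.70 and that of Jup did so by 0.70, each with an error of 0.29. The excess of Ctnnd1 (p120-catenin), which holds E-cadherin at the surface, was 0.36. Cdh3 did not pass the background flag on either array.

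Of 16 desmosome and cytolinker genes, 14 had a value and 0 passed 2-fold in either direction, with 11 above 0, 3 below and a median of 0.44. It was 0.31 when bounds were left out (13 genes), 0.22 with no filter on dim probes and at most 0.63 under the other scalings. Plec, which ties keratin filaments to other parts of the cell, was at 0.78, Dsc1 at 0.73, Pkp3 (a plakophilin of the desmosomal plaque) at 0.67 and Perp (a membrane protein of desmosomes) at 0.61. The Dsc1 value came from a dim probe (203 and 336, error 0.30), and its other probes were not well above background on either array. Dsc2, the desmocollin that pairs with Dsg2, was at 0.57, and the difference between this pair was 0.12, smaller than its error of 0.29, and became -0.34 when the probes of each gene were averaged. Dsc3 and Pkp1 were at -0.13 and Pkp2 at -0.08. Dsp (desmoplakin), which binds the keratins themselves, was at 0.07, near Krt8 and Krt18. Dsg1a and Dsg4, desmogleins of stratified epithelium, did not pass the background flag on either array.

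Of the EpCAM partners, 7 had a value and 0 passed 2-fold, with 5 above 0, 2 below and a median of 0.42. The median was 0.27 when probes were averaged. Cldn7, a claudin that binds EpCAM, was at 0.41 and differed from Epcam by 0.15, less than the error of 0.29. St14, the protease matriptase, was at 0.60, and its inhibitors Spint1 and Spint2 were at 0.65 and 0.42, all by their brightest probes. Dimmer probes of St14 and Spint2, well above background on both arrays, were at -0.06 and -0.03, and that of Spint1 was at 0.63. Cd9 was at 0.58, and Tspan8 at -0.03 and Prss8 at -0.29 lay below 0. All 8 genes of the beta-catenin destruction complex, which marks free beta-catenin for degradation, had a value and 0 passed 2-fold. Their median was -0.05, and it lay above 0 under 4 of the scalings.

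The other pan-epithelial genes, such as the intestinal transcription factors and tight junction proteins, overlapped the members in their ratios and had a lower median. All 16 had a value, 0 passed 2-fold, and the median was -0.12, with 6 above 0 and 10 below. Under the other settings the median lay between -0.16 and 0.06. By their brightest probes, Cldn3 (a claudin) at 0.56 and Vil1 (villin, of the microvilli) at 0.52 were the highest of these genes. Ehf at -0.56 and Esrp2 at -0.50 were the lowest. Dimmer Ehf probes disagreed, at -0.51, -0.30 and 0.51. The summed signal of the 16 genes was 1552503 under the Villin-Cre label and 1536240 under the EP4 cKO label, much of it from Lgals4.

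Krt20 was next set beside genes of the same surface colonocytes. Of 10 surface genes, 5 passed 2-fold upward under the EP4 cKO label and 0 downward, with a median of 0.73. Among all genes 4.88% passed 2-fold upward. The list was chosen with earlier results of these data known, so its count is not independent evidence about Krt20. Emp1, an epithelial membrane protein, gave 4775 under the Villin-Cre label and 108405 under the EP4 cKO label, a log2 ratio of 4.50. Tmigd1, an adhesion protein of the surface epithelium, gave 205 and 3137 (3.94, or 3.15 after normexp and quantile normalization), and Clca4a, a chloride channel regulator, gave 6092 and 76563 (3.65). These 3 lay above Krt20 in log2 ratio. The water channel Aqp8 (236302 and 473610) and Mall (1.02) lay just past 2-fold, Mall falling to 0.99 after normexp and quantile normalization. Other surface genes did not share this: the carbonic anhydrase Car4 was at 0.09, the chloride exchanger Slc26a3 at 0.41, Lypd8 at -0.35 and Guca2a (guanylin) at -0.75. The surface list was therefore split, with Krt20 among its higher part.

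Genes of the crypt base and of cycling cells were split. Of 10 such genes 4 lay above 0 and 6 below, 0 passed 2-fold upward and 2 downward, with a median of -0.87. Mki67, a protein of dividing cells, was at -1.12 and Lgr5, the stem cell receptor, at -1.09, with Lgr5 within 2-fold under all 5 other scalings and Mki67 under 3 of them. Ccnb1 was at -0.98, Ascl2, a transcription factor of crypt stem cells, at -0.93, and Top2a at -0.88. Cd44, an adhesion receptor, was at 0.96, or 0.85 after normexp and quantile normalization. Cd44 passed 2-fold upward at the 75th percentile (1.12), after loess (1.21) and with the median ratio set to 0 (1.15). The counts past 2-fold in this list thus depend on the scaling. The replication genes Pcna, Mcm6 and Mcm2 were at 0.34, 0.25 and 0.14.

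**Figure D4:**
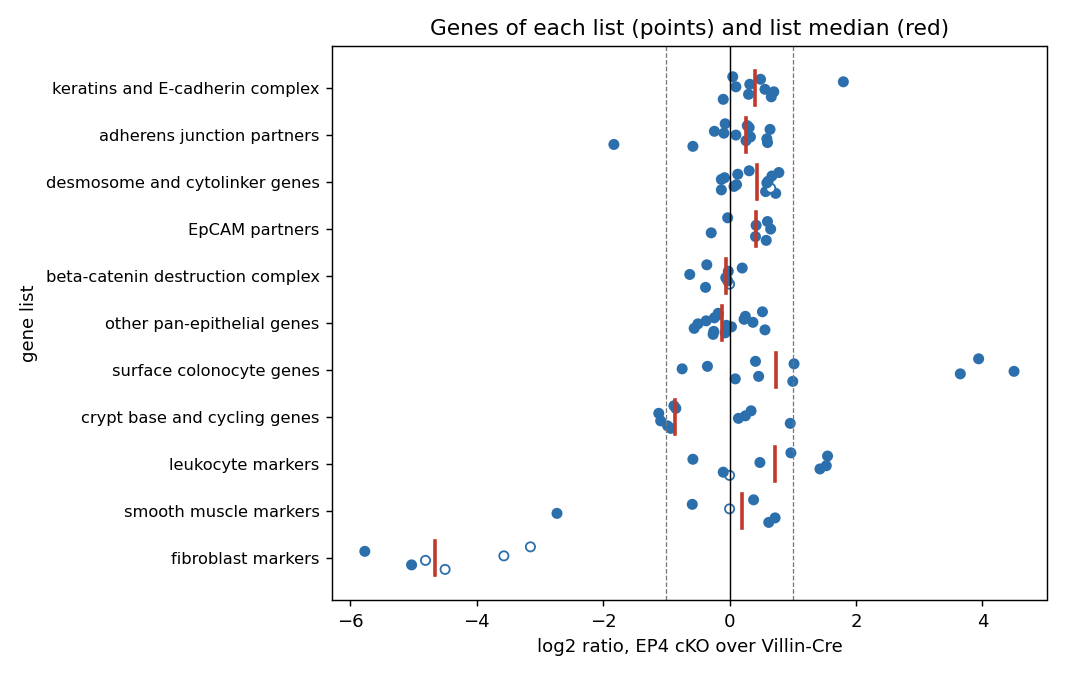
Log2 ratio of EP4 cKO over Villin-Cre for each gene of the lists that gave a value (filled points, measured on both arrays; open points, bound from 1 array), with the list median in red and dashed lines at 2-fold. The median of the keratins and E-cadherin complex is 0.41, that of surface colonocyte genes 0.73, that of crypt base and cycling genes -0.87 and that of fibroblast markers -4.66.

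The keratin family was covered further by 49 other genes named Krt and a number. Of these, 21 were well above background on both arrays, 8 under the EP4 cKO label only, 2 under the Villin-Cre label only and 18 on neither. Of the 31 with a value, 5 passed 2-fold upward and 2 downward, with a median of 0.00. A gene measured on 1 array has only a bound, set against the dimmest signal well above background on the other array, and a bound that did not exceed 1-fold was counted as 0.

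Krt23, the gene next to Krt20 in the keratin order of chromosome 11 and a type I keratin known from several simple epithelia, gave 2163 under the Villin-Cre label and 5107 under the EP4 cKO label, a log2 ratio of 1.24. On the other side of Krt20, Krt12 had a bound of at least 0.49 and Krt10 a ratio of -0.27. Krt39 and Krt40, beyond Krt23, did not pass the background flag. Krt19, which lies apart from Krt20 between Krt15 and Krt9, was at 0.32 as given above.

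On chromosome 15, Krt78 lies next to Krt8 and gave 159 and 596, a log2 ratio of 1.91, whereas Krt8 and Krt18, the last keratins of that cluster, were at 0.05 and 0.10. Krt84, a hair keratin, gave 185 and 608 (1.72). Krt26 passed the background flag only under the EP4 cKO label, with signals of 27.2 and 461 and a log2 ratio of at least 1.88 (1.28 after normexp and quantile normalization), and Krt6b had a bound of at least 1.02 that became 0.61 after normexp and quantile normalization. The lower pair, Krt33a and Krt74, was measured under the Villin-Cre label only, with bounds of -3.11 and -2.48 that became -1.34 and -0.89 after normexp and quantile normalization. Krt16, a keratin of stressed squamous epithelium, was at 0.93, within 2-fold, and at 0.94 after normexp and quantile normalization. It passed 2-fold at the 75th percentile (1.08), after loess (1.07) and with the median ratio set to 0 (1.11).

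**Figure D5:**
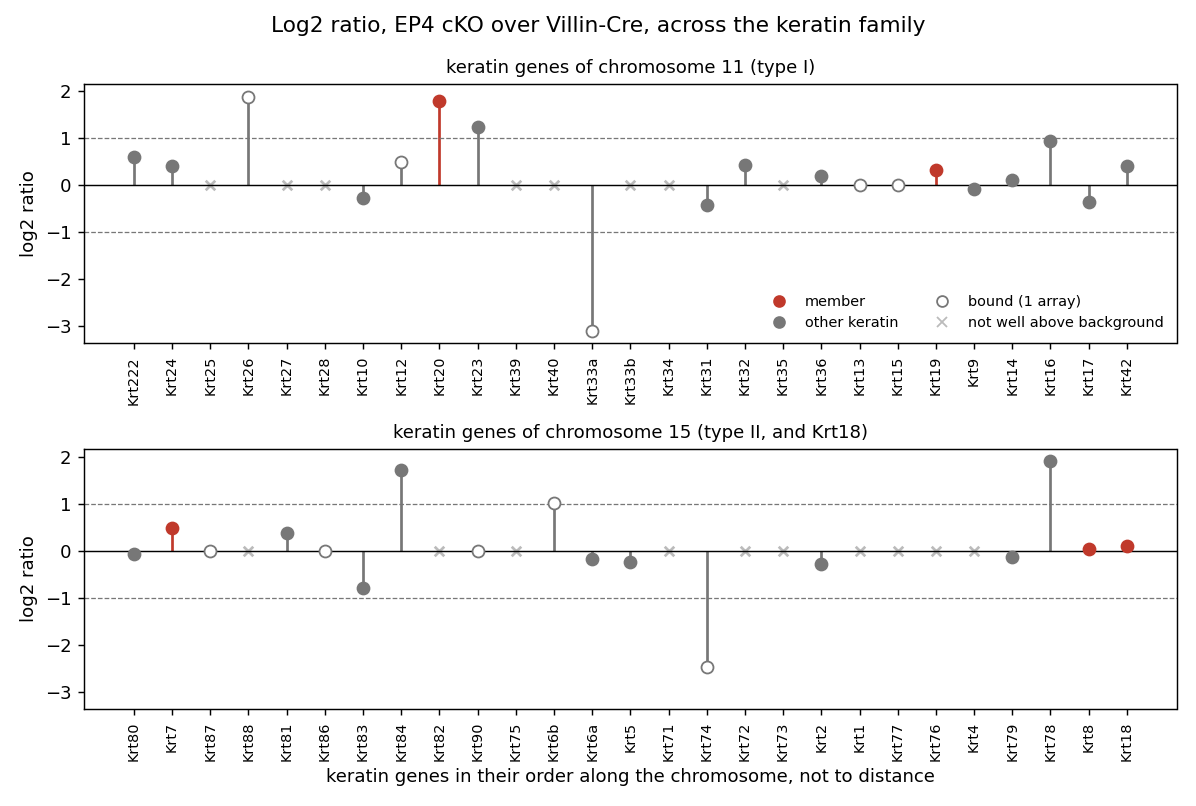
Log2 ratio of EP4 cKO over Villin-Cre for the 54 keratin genes in their order along chromosomes 11 and 15 (order only, not distance), members in red. Filled points were measured on both arrays, open points are bounds from 1 array (0 where the bound did not exceed 1-fold) and crosses mark genes not well above background; Krt20 (1.80) stands beside Krt23 (1.24).

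Markers of other cell types also differed between the arrays. Of 8 fibroblast markers 6 had a value and all 6 passed 2-fold downward under the EP4 cKO label, with a median of -4.66 that became -2.72 after normexp and quantile normalization. Dcn was at -5.77 and Col1a2 at -5.03 (-4.18 and -3.33 after the same alternative), both measured on both arrays. The collagens Col3a1, Col1a1 and Col6a1 and the proteoglycan Lum were well above background under the Villin-Cre label only, with bounds of -4.81, -4.50, -3.57 and -3.15, and Pdgfra and Col6a2 were not well above background. The signal summed over all 8 was 13854 under the Villin-Cre label and 347 under the EP4 cKO label, the latter including 6 markers not well above background there. The sums of the other lists likewise include their markers below that flag. Of 9 smooth muscle markers 6 had a value and 1, Cnn1 at -2.73 (-1.05 after normexp and quantile normalization), was more than 2-fold lower, while Actg2 at 0.72, Acta2 at 0.62 and Tagln at 0.38 were higher by their brightest probes and Smtn was at -0.59. A dimmer Acta2 probe was at -0.58. The list median of 0.19 became 0.01 when probes were averaged, 0.57 after loess and -0.59 with no filter on dim probes. The summed signal was 33065 and 47432, and Myh11, Lmod1 and Synpo2 were not well above background. Of 9 leukocyte markers 8 had a value and 3 were more than 2-fold higher (Lcp1 1.55, Coro1a 1.53 and Cd52 1.43, Lcp1 being at 0.91 when its probes were averaged), while Laptm5 was at -0.58 and Cd3e at -0.10. The summed leukocyte signals were 56096 and 80603, most of it from Itgam (49347 and 68597), and Adgre1 was not well above background. The part of these shifts in the members' values was not tested.

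The remaining marker lists gave few values. Of 7 endothelial markers 2, Vwf (873 and 914) and Pecam1, had a value, and Cdh5, Kdr, Tek, Tie1 and Emcn were not well above background on either array, with summed signals of 1225 and 1206. Of 8 markers of enteric neurons and glia 2 had a value (Uchl1 -1.43 and Elavl4 -0.82), with summed signals of 3532 and 1640 and with Sox10 and S100b not well above background, and of 5 mesothelial markers Msln alone did, at -0.59. Of 8 squamous markers 7 had a value, 0 passed 2-fold and the median was 0.00, with summed signals of 9065 and 10838. The genes that repress Cdh1 in mesenchymal transition, Snai1, Snai2, Twist1, Zeb1 and Zeb2, did not pass the background flag on either array, and the mesenchymal genes of that list gave Fn1 0.98, Cdh11 -0.73 and Vim -0.29. The colon epithelial markers were well above background on both arrays, Lgals4 giving 801162 and 679445 and Hnf4a giving 168393 and 198076. The epithelial part of the tissue label was thus borne out, whereas several defining markers of the muscle, vessels, glia and, under the EP4 cKO label, fibroblasts of a whole colon were not well above background.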

How the data were processed

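Colon RNA of 2 genotypes was analysed on 1 Agilent array each. The members and lists were chosen with earlier results of these data known. The authors deposited scanner output; the intensity used is the processed signal, background-subtracted by the software and not scaled between arrays (Feature Extraction 12.0.3.1 in the file headers, 11.5.1.1 in the submitters' processing notes). The study's scaling to a 2% trimmed mean of 2500 and its 2-fold threshold were applied here, with no test.

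Control and outlier spots were left out and 56593 probes kept, of which 32989 were named through RefSeq transcripts (GRCm38.p6, names and gene order only). The factors were 3.45 for Villin-Cre and 2.68 for EP4 cKO. A probe well above background on 1 array was compared on the other with its own signal there or, if greater, the lowest signal well above background (125 for Villin-Cre, 57.8 for EP4 cKO). With 1 array per genotype, the number of arrays limits the precision. The scaling was tested on simulated data. Named were all members, Ptger4, per list at most 5 genes with the largest absolute ratios among those on both arrays, any gene past 2-fold, plus partners, defining markers and neighbours of members chosen after their values were seen.

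Alternatives were the 75th percentile, normexp (offset 50, on the median signal and median background intensity the authors deposited) with quantile normalization in limma 3.58.1 under R 4.3.3, loess (span 0.3) in statsmodels 0.14.6, the trimmed mean over all spots, a median ratio of 0, other filters, probe rules and thresholds. Other steps used Python 3.11.15, pandas 2.3.3 and numpy 2.4.6.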

Additional observations from a re-analysis of the deposited data

How the results depend on the processing

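The count of members past 2-fold was 1, Krt20, under all scalings, filters and probe rules, and 3 with a threshold of 1.5-fold (Krt20, Cdh17 and Dsg2). The median of the members, 0.41, was 0.56 at the 75th percentile, 0.49 after normexp and quantile normalization, 0.51 after loess, 0.54 with the trimmed mean over all spots, 0.59 with the median ratio set to 0 and 0.28 when a gene's probes were averaged. The excess of Krt20 over the pan-epithelial members lay between 1.45 and 1.57. Naming probes by a gene column of the array was not run, since the files used here carry none. No paired analysis was possible because each genotype has 1 array. Dim probes limit the rest: bounds such as those of Krt26 and Krt33a depend on the background of the array without signal, and Ctnnb1 and Dsg2 depend on which probe is read. Leaving out an array was not possible.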
